A study of Pimephales promelas with 15 samples.

Results

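In the count table, 64 of 14279 identifiers stood apart in larvae from the medium HBCD group, on the same side of both the solvent control and the low HBCD group. HBCD (hexabromocyclododecane) is a brominated flame retardant, and the larvae received it through eggs of parents that had eaten it. Of these 64 members, 17 had higher and 47 had lower levels in medium HBCD than in both other groups. They were chosen on the measured values: an identifier had to lie on 1 or 2 rows of the table, to have a mean level from 1 to below 1000 CPM (the count scaled to a library total of 1000000 counts) and a pooled within-group SD below 1 on the log2(CPM + 1) scale, and 12400 identifiers met these limits. Among them a member had an unadjusted p under 0.02 for medium against solvent and for medium against low HBCD, with the same sign, and a p of at least 0.05 for low against solvent, each from a test of 2 means with unequal variances. All 3 contrasts were thus used for the choice, so the levels of members in the 3 groups are given as a description, without a test.

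HBCD was made as an additive for polystyrene foams and textiles. It is persistent and lipophilic, accumulates in fish through the diet, and passes from the mother to the yolk of the egg, so that the embryo meets it before it feeds. In fish and mammals it has been studied chiefly for effects on the liver and on thyroid hormones, which act on larval growth and on the change from larva to juvenile.

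The fathead minnow (Pimephales promelas) is a small freshwater fish used in toxicity tests. Adults ate food with solvent only (evaporated ethanol), 11.5 mg HBCD per kg or 36.4 mg HBCD per kg for 49 days, and fertilized eggs were taken between days 25 and 42. The offspring grew in clean water and were sampled 7 days after fertilization as whole bodies in pools of 20, at measured body burdens below the detection limit in the solvent control, 0.576 mg per kg in low HBCD and 1.77 mg per kg in medium HBCD. Polyadenylated RNA was sequenced in 5 libraries, lettered A to E, in each of the 3 groups. The labels name neither the parents of a pool nor a batch, so the spread between libraries is that between pools and may in part be technical.

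Library totals, in mega-counts (1000000 estimated counts), were 13.03 to 58.39 in the solvent control, 12.75 to 35.25 in low HBCD and 12.62 to 26.44 in medium HBCD. Solvent replicates D and E were the deepest, at 49.3 and 58.39 mega-counts, and were also the most similar pair of libraries within any group, with an SD of 0.20 for their log2 difference over the 12400 identifiers, against 0.28 to 0.59 for the other 29 pairs. The differences from solvent of the named members, and the medians over members, are therefore also given without them. The identifiers have the form of RefSeq or UniProt protein accessions; the deposited tables do not pair them with gene names, and 0 of 14279 matched the RefSeq table of this species' 64593 genes, so neither gene names and functions nor tissue markers can be given. Members named by identifier number 4, and the rest are described by rank, count and range.

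Most members differed by little. The smaller of a member's 2 differences, medium minus solvent and medium minus low, had a median size of 0.35 on the log2(CPM + 1) scale, or 1.27-fold in CPM + 1, and ran from 0.12 to 3.24. Between single libraries the fold in CPM itself is larger than the fold in CPM + 1, chiefly at low levels. The ratio of mean CPM between groups need not be larger. The smaller difference was 1 or more in 5 members (2 higher and 3 lower in medium HBCD) and from 0.5 to 1 in 14 (5 higher, 9 lower). It was from 0.25 to 0.5 in 29 (6 higher, 23 lower) and under 0.25 in 16 (4 higher, 12 lower). For the 17 higher members the median difference was 0.39 for medium minus solvent and 0.41 for medium minus low, and for the 47 lower members it was -0.34 and -0.43. Over all 12400 identifiers these medians were -0.017 and -0.067. Since the tissue is a whole larva, fewer cells of a type and less RNA per cell cannot be told apart in any of these values.

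**Figure D1:**
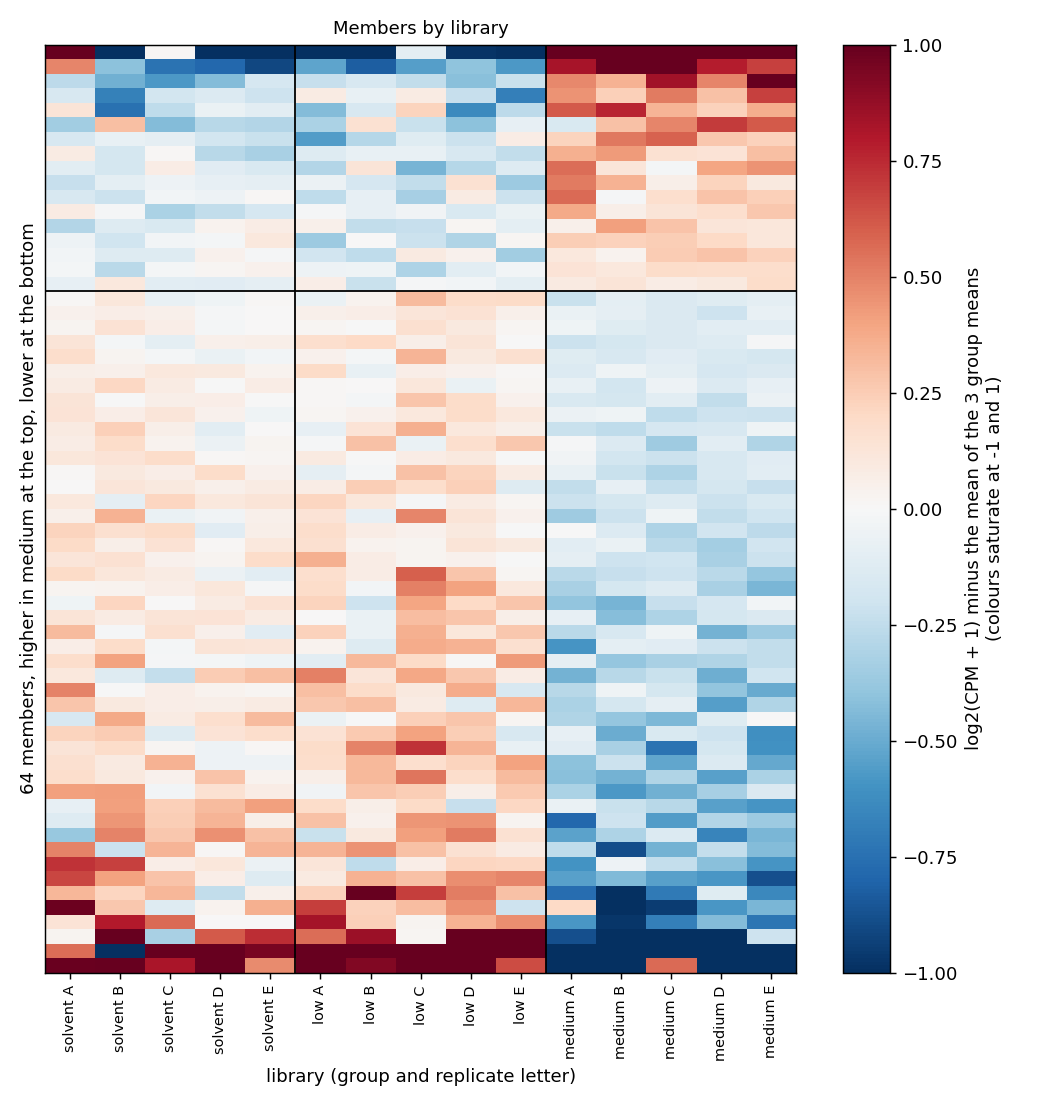
Level of each of the 64 members (rows) in each of the 15 libraries (columns), as log2(CPM + 1) minus the mean of the 3 group means, with red above and blue below that mean. The 5 medium HBCD columns are mostly red for the 17 members above the horizontal line and mostly blue for the 47 below it, which is what the members were chosen for.

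The higher member with the largest difference, A0A0R4IX96, had low counts in both other groups, with under 1 estimated count in 4 of those 10 libraries. It had 7.03 CPM in solvent replicate A, 3.04 in C and 0.447 in D, with under 1 estimated count in B and E. In low HBCD it had 0.517 CPM in replicate B, 2.74 in C and 1.03 in D, and 0 in A and E, where 3 counts would be 0.15 and 0.235 CPM. In medium HBCD it had 20.0, 19.4, 13.6, 15.8 and 18.1 CPM in replicates A to E. All 5 medium libraries thus lay above the highest of the other 10, solvent replicate A. The group means were 2.10 ± 3.03 CPM in the solvent control, 0.857 ± 1.14 CPM in low HBCD and 17.4 ± 2.67 CPM in medium HBCD (SD, n = 5 each). On the log2(CPM + 1) scale medium was above solvent by 3.08 and above low HBCD by 3.48, and above solvent by 2.51 without solvent replicates D and E.

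NP_001099171.1, the second, was well covered in all libraries, with at least 280 estimated counts in each. Its solvent libraries A to E had 54.0, 28.5, 22.5, 21.8 and 19.9 CPM, its low HBCD libraries 26.2, 21.1, 25.7, 28.7 and 25.4 CPM, and its medium HBCD libraries 68.5, 119.5, 97.1, 66.6 and 62.1 CPM. The 5 medium libraries did not overlap the other 10, although solvent replicate A, at 54.0 CPM, stood apart from the other 4 controls and close to medium replicate E. Means were 29.3 ± 14.1 CPM in the solvent control, 25.4 ± 2.75 CPM in low HBCD and 82.8 ± 24.7 CPM in medium HBCD (SD, n = 5 each). Medium minus solvent was 1.52 and medium minus low 1.62 on the log2(CPM + 1) scale, and medium minus solvent was 1.27 without solvent replicates D and E.

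F1QGL5 was the lower member with the largest difference, and 1 medium library did not share it. It had 13.9, 21.7, 12.3, 18.3 and 9.42 CPM in solvent replicates A to E and 22.4, 13.3, 16.9, 17.6 and 10.9 CPM in low HBCD replicates A to E. In medium HBCD, replicates A, B, D and E each had under 1 estimated count, while replicate C had 10.2 CPM, from 128 estimated counts. The value of medium replicate C lay inside the solvent range, so the groups overlapped. Means were 15.1 ± 4.87 CPM in the solvent control, 16.2 ± 4.41 CPM in low HBCD and 2.05 ± 4.54 CPM in medium HBCD (SD, n = 5 each). Medium minus solvent was -3.24 and medium minus low -3.35 on the log2(CPM + 1) scale, and medium minus solvent was -3.33 without solvent replicates D and E. The within-group SD of log2(CPM + 1) was 1.55 in medium HBCD for this member, against 0.44 in the solvent control and 0.38 in low HBCD.

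XP_009291546.1, the next lower member, also went with 1 exception, this time in the solvent control. It had 5.37, 0.0742, 9.67, 9.07 and 7.36 CPM in solvent replicates A to E, where the value of replicate B came from 1 count, and 13.3, 17.8, 11.0, 10.8 and 8.47 CPM in low HBCD. It had 0 counts in medium replicates A, B, D and E, in which 3 counts would be 0.113 to 0.228 CPM, and 0.555 CPM from 7 counts in replicate C. Solvent replicate B thus lay within the medium range, and the other 9 solvent and low libraries lay above it. The identifier covers 2 rows of the table, and the first row held 0 counts in all 5 medium libraries while the second held the 7 counts of replicate C. Means were 6.31 ± 3.87 CPM in the solvent control, 12.3 ± 3.52 CPM in low HBCD and 0.111 ± 0.248 CPM in medium HBCD (SD, n = 5 each). Medium minus solvent was -2.39 and medium minus low -3.56 on the log2(CPM + 1) scale, with -1.94 for medium minus solvent without solvent replicates D and E. Low minus solvent was 1.17 for this member, the largest in size among the 64.

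**Figure D2:**
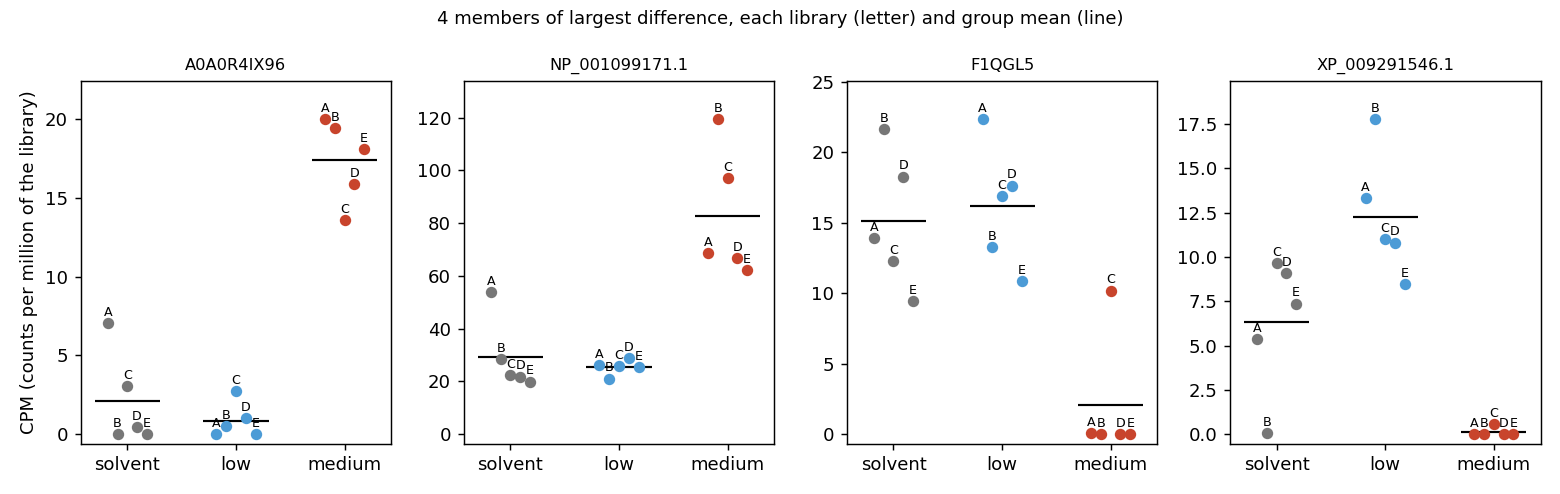
CPM of the 4 members with the largest differences, 2 higher and 2 lower in medium HBCD, with 1 point per library (letter) and a line at the group mean of 5 libraries. Medium replicate C of F1QGL5, at 10.2 CPM, and solvent replicate B of XP_009291546.1, at 0.0742 CPM, lie with the opposite group.

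Members further down had smaller differences. The third higher member had 4.38 to 6.15 CPM in the solvent control, 4.99 to 6.18 CPM in low HBCD and 9.18 to 15.4 CPM in medium HBCD, where replicate E had 15.4 CPM, C 13.3 CPM and the other 3 between 9.18 and 10.3 CPM. Its means were 5.18 ± 0.718, 5.73 ± 0.442 and 11.7 ± 2.60 CPM in solvent, low and medium libraries (SD, n = 5 each), so the medium level was about as far above one group as above the other. The fourth had 1.85 to 4.20 CPM in the solvent control, 2.07 to 4.55 CPM in low HBCD and 4.58 to 7.06 CPM in medium HBCD, with medium replicate D just above low HBCD replicate C. In both, all 5 medium libraries exceeded the other 10.

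Among lower members, the third had 12.6 to 35.5 CPM in the solvent control, 16.3 to 47.2 CPM in low HBCD and 2.91 to 13.8 CPM in medium HBCD. Medium replicate E, at 13.8 CPM, reached above solvent replicate C at 12.6 CPM, so these groups overlapped by 1 library. The fourth had 6.44 to 11.9 CPM in the solvent control, 6.59 to 12.3 CPM in low HBCD and 2.79 to 4.50 CPM in medium HBCD, and no medium library reached the other 10. Its means were 8.40 ± 2.44, 8.87 ± 2.13 and 3.67 ± 0.630 CPM in solvent, low and medium libraries (SD, n = 5 each).

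At high counts the members' differences were small and so was their spread. The tests of the rule divide a difference by the within-group spread, so the choice ties one to the other. The spread of all identifiers at these levels was not computed, so nothing is read from this. A mean of 100 to 1000 CPM was found in 10 members, with smaller differences of 0.15 to 0.39 and pooled SDs of 0.046 to 0.20 on the log2(CPM + 1) scale. The higher member with the most counts had 721.8 to 815.7 CPM in the solvent control, 622.5 to 841.5 CPM in low HBCD and 810.0 to 962.2 CPM in medium HBCD, and its medium range overlapped both the low range and the solvent range, in which replicate D had 815.7 CPM. The lower member with the most counts had 661.5 to 693.6 CPM in the solvent control, 613.7 to 737.5 CPM in low HBCD and 574.2 to 626.6 CPM in medium HBCD, with low HBCD replicate B, at 613.7 CPM, inside the medium range. The 18 members under 10 CPM had smaller differences of 0.34 to 3.08 and pooled SDs of 0.15 to 0.91. Levels are not compared between members, since lengths of the targets were not used here.

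All 5 medium libraries lay outside the range of the other 10 in 30 of the 64 members, above them in 9 and below them in 21. Of the 12400 identifiers this held for 0.331%, 0.0806% above and 0.25% below, and the choice of members favours it. Among the 10 members of 100 CPM or more it held for 6, and among the 18 under 10 CPM for 9. The share of all identifiers within these bands was not counted, so nothing is read from these counts. Without solvent replicates D and E the 5 medium libraries lay outside the other 8 in 33 members, and in 0.532% of the 12400 identifiers. The contrasts used for the choice had p under 0.02 in 3.2% of the 12400 for medium against solvent and in 4.0% for medium against low, and p under 0.05 in 8.03% for low against solvent.

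Low minus solvent was smaller in size than either medium difference in all 64 members. A p of at least 0.05 for low against solvent does not by itself make these groups close. Together with p under 0.02 in both medium contrasts, however, it favours a small low minus solvent beside the medium differences. The counts and ratios below therefore describe what was chosen, and nothing more is read from them. The difference of low minus solvent was under 0.1 of the member's smaller medium difference in 21 of the 64 members, the median ratio was 0.17, and the highest was 0.90. Over all 12400 identifiers it was under 0.1 in 632, and the median ratio was 2.18. Medium minus low was larger in size than medium minus solvent in 46 members, 12 of the 17 higher and 34 of the 47 lower ones, which are those in which low HBCD lay on the side of solvent away from medium. Low HBCD lay on that side in 4827 of the 12400 identifiers. With library totals, low was above solvent in 62.4% of the 12400, whichever side medium took. The median of low minus solvent was -0.046 in the higher and 0.058 in the lower members, against 0.049 over all 12400 identifiers. Without solvent replicates D and E it was -0.025 in the higher and 0.033 in the lower members. The shift of all identifiers depends on the scaling: with TMM factors, which set libraries on a trimmed mean of ratios, it was 0.0015, and low minus solvent then had a median of -0.083 in the higher and 0.0095 in the lower members, with low above solvent in 4 of 17 and 28 of 47. Among all identifiers within the limits, low was above solvent in 50.4% with TMM factors.

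**Figure D3:**
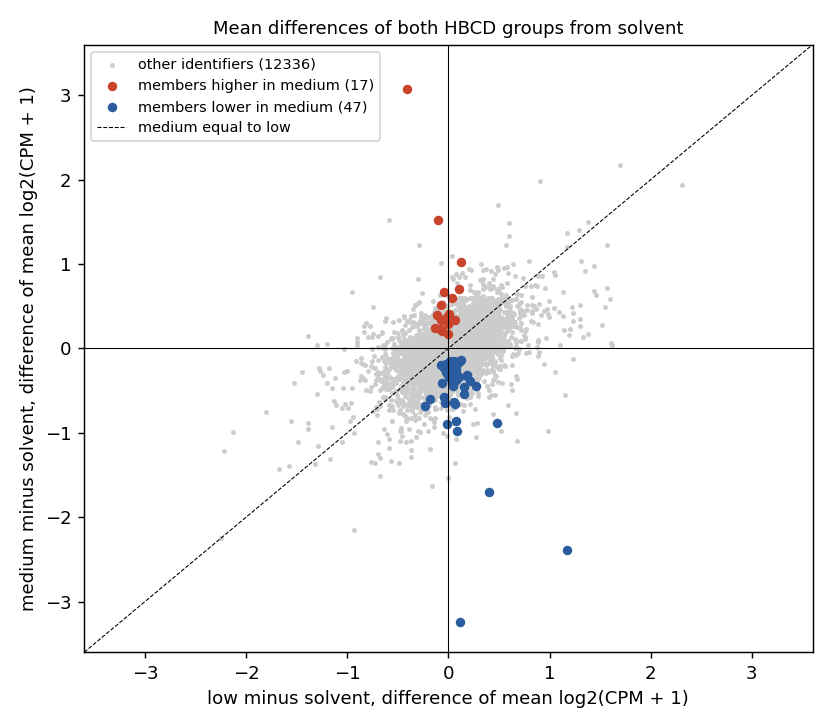
Difference of mean log2(CPM + 1) from the solvent control in medium HBCD (vertical axis) and in low HBCD (horizontal axis), 1 point per identifier, with the 64 members coloured and the other identifiers in grey. Both axes use the same 5 solvent libraries, which by itself stretches the grey points along the dashed line. The members lie near the vertical line at 0, between -0.41 and 1.17 on the horizontal axis, as the choice favours.

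The split by direction also moved with the scaling. With library totals, 26.6% of members were higher in medium HBCD (17 of 64). With TMM factors, or with DESeq2 size factors, the same rule chose 61 identifiers, of which 26 were higher and 35 lower in medium HBCD, or 42.6% higher, and 50 of the 61 were among the 64. Those 50 held all 17 higher members and 33 of the 47 lower ones. Of the 14 members not chosen with TMM factors, 12 had p under 0.05 in both medium contrasts. That is a looser limit on the contrasts that chose them. The share of all identifiers meeting it was not counted, so nothing is read from it. With TMM factors the median difference of medium minus low over all identifiers was -0.0055, against -0.067 with library totals.

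By library, the median higher member lay between 0.30 (replicate C) and 0.51 (replicate A) above its solvent mean in the 5 medium libraries, on the log2(CPM + 1) scale. It lay between -0.078 and 0.025 in the solvent libraries and between -0.058 and 0.021 in the low HBCD libraries. The median lower member lay between -0.35 and -0.31 in medium libraries, between -0.052 and 0.058 in solvent libraries and between -0.027 and 0.12 in low HBCD libraries. Members past the midpoint between the medium mean and the solvent mean numbered 57 to 63 of 64 in each medium library, 3 to 8 in each solvent library and 3 to 8 in each low HBCD library. The choice compared these same means, so such a split is what the members were chosen for. Without solvent replicates D and E, the median of medium minus solvent was 0.39 in the higher and -0.35 in the lower members.

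**Figure D4:**
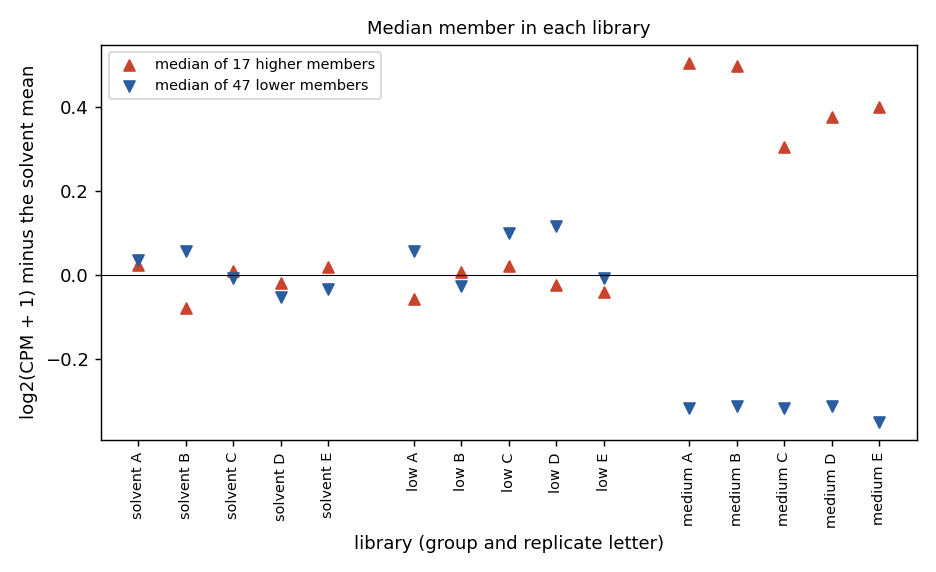
Median over the 17 higher (triangles up) and the 47 lower members (triangles down) of log2(CPM + 1) minus the member's solvent mean, in each of the 15 libraries. Higher members sit between 0.30 and 0.51 and lower members between -0.35 and -0.31 in the 5 medium libraries, and both sit between -0.078 and 0.12 in the other 10, which is what the members were chosen for.

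How members varied together inside a group was not compared by the rule. Its tests divide by the within-group spread, however, so the choice acts on these deviations. The values below are therefore not independent of the choice. After group means were removed, the deviations of 2 members over the 15 libraries had a median Pearson r of -0.035 among higher members, 0.058 among lower members and 0.024 between a higher and a lower one, against 0.0053 for pairs of the 12400 identifiers. Of the 2016 pairs of members, 12.3% had an r over 0.5 in size, against 22.8% of pairs of all 12400. The first principal component of the deviations held 19.3% of the variance in the members and 30.0% over the 12400. These points share libraries and depth and carry no test. Members were also less spread than the rest, as the choice favours, with a median pooled SD of 0.16 against 0.21.

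In the edgeR quasi-likelihood fit over 13283 identifiers, which included all 64 members, 1 member passed a Benjamini-Hochberg adjusted p of 0.05 for medium against solvent, of 3 identifiers in all (0.0226%). For medium against low, 7 members passed, 3 higher and 4 lower, of 20 in all (0.151%). The member that passed for medium against solvent was the third higher one. NP_001099171.1 and XP_009291546.1 passed for medium against low only. A0A0R4IX96 and F1QGL5 passed neither. Their edgeR adjusted p was 0.65 and 0.64 for medium against solvent, and 0.30 and 0.44 for medium against low. For low against solvent, 0 members passed edgeR, of 7 in all (0.0527%), and 0 had an unadjusted p under 0.05 (7.65% of all identifiers). DESeq2 passed 0 members there (0.728% of all identifiers), with 2 at an unadjusted p under 0.05 (8.62% of all). Likewise limma-voom passed 0 members (0.196% of all), with 4 at an unadjusted p under 0.05 (11.5% of all). Unadjusted edgeR p under 0.05 was reached by 62 members for medium against solvent (6.29% of all) and by 60 for medium against low (8.81%). As the rule used these contrasts, nothing is read from these shares.

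The edgeR log2 fold changes of the higher members had a median of 0.43 for medium against solvent and 0.55 for medium against low, and those of the lower members -0.34 and -0.39. The number of members passing was sensitive to single libraries. For medium against low it was 2 without medium replicate D, 3 without medium replicate A and 4 without solvent replicate C, solvent replicate D or low HBCD replicate D, while the count over all identifiers was 9 without medium replicate D, 10 without low HBCD replicate D, 12 without medium replicate A or solvent replicate C and 13 without solvent replicate D. For medium against solvent it was 0 without solvent replicate C or D, and 2 without solvent replicate A, B or E or medium replicate C. Over all identifiers there were 0 without solvent replicate C (767 at an unadjusted p under 0.05), 1 without D, 6 without A or B and 4 without E. That count was 3 without medium replicate C, 5 without low HBCD replicate C and 8 without low HBCD replicate E. For low against solvent the count over all identifiers was 18 without solvent replicate A, 12 without low HBCD replicate E, 3 without medium replicate A, 1 without solvent replicate B or medium replicate B or E, and 0 without solvent replicate C or D, low HBCD replicate A, C or D, or medium replicate C or D (773 to 1027 at an unadjusted p under 0.05). DESeq2 passed 21 members of 104 identifiers for medium against solvent (0.742%), and 31 of 148 for medium against low (1.06%).

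The authors' deposited table for medium HBCD against solvent listed 21 of the 64 members among its 105 targets, which is 32.8% of the members and 20% of the table, and 0.677% of the 12400 identifiers were listed. Of the 21 in the authors' deposited table, 6 were higher and 15 lower, each with the direction found here, and their log2 fold changes ran from -5.97 to 1.51. NP_001099171.1 had 1.51 and XP_009291546.1 had -5.97 in the authors' deposited table, while A0A0R4IX96 and F1QGL5 were not on it. The edgeR log2 fold change of XP_009291546.1 for medium against solvent was -6.09 (SE 1.09). That SE is not an output of the fit but the size of the fold change over the square root of its F statistic. The fold change was -10.24 without medium replicate C, when 0 counts were left in the medium group and the value depends on the prior count of the fit. The SE does not cover such a change. None of the 64, or 0, stood among the 99 targets of the authors' deposited table for the low HBCD contrast, which held 0.669% of the 12400 identifiers. Both tables rest on libraries that also chose the members.

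Members resembled the 12400 identifiers in the form of their accession. Of the 64, 15 (23.4%) had a RefSeq predicted protein accession, 11 (17.2%) another RefSeq protein accession and 38 (59.4%) neither, against 26.4%, 15.2% and 58.5% of the 12400. The last class was taken as the UniProt form without a check of each identifier. The share with a mean of 1 to 10 CPM was 28.1%, against 22.4%. On 2 rows lay 6 members (9.38%), against 4.86% of the 12400, and 3 members (4.69%) had a 0 in at least 1 library, against 2.22%. None of these shares was tested.

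Where reads matched more than 1 target, the estimated counts split them, and a count that is not whole is a sign of that. Counts were whole in all 15 libraries, within a tolerance of 1e-06, for 19 of the 64 members (29.7%) and for 33.5% of the 12400. A count of 0 was taken as whole. XP_009291546.1 had whole counts in all 15 libraries, of which 4 were 0 (medium replicates A, B, D and E). NP_001099171.1 had them in 5, A0A0R4IX96 in 2 and F1QGL5 in 0, so the counts of these 3 were in part divided with other targets. The 2 whole counts of A0A0R4IX96 were the 0 counts of low HBCD replicates A and E, so none of its other counts was whole. The part of shared reads in the differences was not tested.

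The limits of the rule cut through a continuous range of values. The member nearest the limit of 0.02 stood at 0.01982 in the weaker of its medium contrasts, with differences of 0.17 and 0.17, and the first identifier outside stood at 0.02027, with differences of -0.59 and -0.59 (medium minus solvent and medium minus low). In 30 members that value was 0.01 or more, and 47 identifiers outside lay between 0.02 and 0.03. The limit on low against solvent left out 5 identifiers, the nearest of them at 0.03648, while the nearest member stood at 0.05435. The same rule with another group standing apart chose 118 identifiers for low HBCD, 96 higher and 22 lower, and 48 for the solvent control, 22 higher and 26 lower. All 3 numbers come from the same 15 libraries and their order was not tested.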

How the data were processed

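Trim Galore, kallisto and DESeq2 were run by the authors, per the submitters' processing notes (versions and target sequences: not given in the sources used here). Estimated counts per target and library were deposited by the authors, not normalized, on 15551 rows for 15 libraries. They also deposited 2 tables of their own comparisons, which per the file headers hold raw and adjusted p-values, a log2 fold change with its error, a score (the test statistic) and a signal (the mean of normalized counts).

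Here rows were summed per identifier; 141 identifiers on more than 2 rows were left out of the rule but kept in the fit. CPM used library totals, and the log2 scale a pseudocount of 1. Counts rounded to whole numbers were tested with edgeR 4.0.16 (R 4.3.3; quasi-likelihood, TMM, filterByExpr, robust; 15 libraries in 1 fit, Benjamini-Hochberg adjusted over 13283 identifiers, threshold 0.05). DESeq2 1.42.0 and limma 3.58.1 were alternatives. The rule and the edgeR fit were tested on simulated counts with known changes, which gives no chance rate for the rule.

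The members, lists and alternatives were chosen with earlier results of these data known. Since no identifier could be paired with a name, the planned gene lists and tissue markers were not used. The 2 members per direction with the largest smaller difference are named by identifier, as fixed with the design; the next 2 members by rank, and those of most counts, were described after their values were seen. Floors of 3 counts cover counting error only.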

Additional observations from a re-analysis of the deposited data

Results flagged for a closer look

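Unusual single libraries were looked for in the values of the 4 named members, of the next 2 members in each direction and of the member of most counts in each direction, and in the library totals and the median distance of members from the solvent mean, over 36 group-wise sets of 5 libraries. A set counted where the extreme library's distance to its neighbour was above 0.71 of the whole range, which chance alone gives in about 1 set of 20, and 3 sets did so. Solvent replicate A had 53.98 CPM of NP_001099171.1, a gap of 0.749 of the range. Medium replicate C had 10.18 CPM of F1QGL5 (0.995 of the range) and 0.5546 CPM of XP_009291546.1 (1.0 of the range), where the other 4 medium libraries had under 1 estimated count. For XP_009291546.1 those 4 had 0 counts, so any count in replicate C would give 1.0. Over all 64 members, 13 of 192 sets (6.77%) were of this kind, against 6.28% of the sets of the 12400 identifiers.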

How the results depend on the processing

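The number of members, 64 (17 higher, 47 lower in medium HBCD), was 110 (32 and 78) with a moderated limma test in the rule, of which 52 were among the 64. It was 34 (9 and 25) at a threshold of 0.01, 210 (52 and 158) at 0.05, and 42 (9 and 33) without solvent replicates D and E, of which 29 were among the 64. A mean of at least 10 CPM left 11 higher members, and TMM factors or DESeq2 size factors gave 26. Pseudocounts of 0.5 and 0.1, other limits on rows and no filter kept all 3 counts within 1.5 times. Leaving out 1 library gave 46 to 72 members, 11 to 19 higher (11 without solvent replicate C, low HBCD replicate D or medium replicate D) and 35 to 58 lower, and 36 to 48 of the 64 were chosen again. The median r within groups, signs aligned and over the same 64 members throughout, was 0.0027 to 0.026 over the scalings, pseudocounts and left-out libraries; the other alternatives could not move it.

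Calls are given over all identifiers, then among members. For medium against solvent they were 3 and 1 in edgeR, 104 and 21 with DESeq2, 12 and 3 with limma-voom, 16 and 3 with rows as deposited, 5 and 0 with the 10 libraries compared, and 1 and 0 without solvent replicates D and E. With rows as deposited only 58 of the 64 members were tested. In the fits on 10 libraries 63 were tested for medium against solvent and for low against solvent. For medium against low, edgeR called 20 and 7, DESeq2 148 and 31, the fit on 10 libraries 9 and 2, that without solvent replicates D and E 13 and 4, and limma-voom 18 and 4. For low against solvent, edgeR called 7 over all identifiers, DESeq2 102, limma-voom 26, the fit on 10 libraries 0 (960 at an unadjusted p under 0.05) and that without solvent replicates D and E 1; members were called by none of these. Leaving out 1 library gave 0 to 8 and 0 to 2 calls for medium against solvent, 9 to 22 and 2 to 7 for medium against low, and 0 to 18 and 0 for low against solvent. Other settings stayed within 1.5 times. Some of these settings hold fewer libraries; the cause was not tested.

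With the letter as a replicate block, edgeR called 0 and 0 for medium against solvent (801 and 59 at an unadjusted p under 0.05), 4 and 1 for medium against low, and 1 and 0 for low against solvent. Same-letter libraries deviated from their group means with r from -0.35 to 0.32 over 15 pairs, 7 of them above 0.1. Their median r was 0.098, against -0.022 for libraries of different letter and group. The nearest library of another group by deviation carried the same letter for 4 of 15. These values do not settle whether the letters pair the libraries, and the main fit did not pair them.

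The medium HBCD values of 2 named members rest on few counts outside 1 library. F1QGL5 had 129.4 counts in all medium libraries together, of which replicate C gave 128.4. XP_009291546.1 had 7 counts, all in replicate C.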
